A study of Caenorhabditis elegans with 2 samples.

Results

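The piRNA gene clusters of chromosome IV were examined for binding of the tagged protein DOX-1 in the nematode Caenorhabditis elegans. Of the 4441 peaks in the larger of 2 peak sets that the authors called from both samples together, 176 had their summit in positions 4.5 to 7 Mb (86 peaks, here the proximal region) or 13.5 to 17.2 Mb (90 peaks, the distal region) of chromosome IV. These limits, on build ce11 (WBcel235), chose the peaks by position alone and used neither signal nor reproducibility. The other 520 peaks of chromosome IV served for comparison. The annotation placed 14204 of the 14714 piRNA genes of chromosome IV inside the limits, out of 15363 on all chromosomes, so the regions hold what their name says, except for the first 300 kb of the proximal region, which hold 9 piRNA genes and 26 of the peaks.

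Chromatin immunoprecipitation with an antibody against GFP, followed by sequencing, was carried out on whole young adult worms of strain RW12180. In this strain CRISPR had placed a TY1, EGFP and 3xFLAG tag on the gene dox-1 of chromosome I, which the labels list under the name dxbp-1 as the edited target. Worms were synchronised by bleaching and starvation in the first larval stage, collected at 66 hours, and their chromatin was sonicated to 200 to 800 bp. Both biological replicates belong to 1 group, so no condition could be compared, and the experiment named as a possible control is not analysed here. Every sample pools all tissues of many animals, so binding in few cells and weak binding in many cannot be told apart.

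piRNAs of this species, the 21U-RNAs, are small RNAs that the Argonaute protein PRG-1 uses to find and silence foreign transcripts in the germ line. Each comes from its own short transcription unit made by RNA polymerase II, and most units carry an upstream element, the Ruby motif, at which a complex with PRDE-1, SNPC-4, TOFU-4 and TOFU-5 gathers. The chromosome IV clusters hold very many of these units, in introns and between protein-coding genes, in AT-rich DNA.

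The sequences below, read from the RefSeq genome of WBcel235 and written 5′ to 3′, show what lay under the strongest summits and what marks a piRNA gene. Capitals in the first 4 mark the part of the 91-base window around each summit that falls in an exact run shared by the pair. Sites A (IV:4727829-4728259) and B (IV:4720506-4720895) share 187 bases in opposite orientation, and sites C (IV:16845361-16845774) and D (IV:15530577-15530890) share 101.
Site A, IV:4728003-4728093, plus strand: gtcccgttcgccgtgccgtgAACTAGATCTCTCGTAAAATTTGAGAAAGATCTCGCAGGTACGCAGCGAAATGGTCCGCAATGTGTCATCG
Site B, IV:4720676-4720766, minus strand: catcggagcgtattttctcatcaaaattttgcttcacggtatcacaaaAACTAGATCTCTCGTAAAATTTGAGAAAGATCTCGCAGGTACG
Site C, IV:16845541-16845631, plus strand: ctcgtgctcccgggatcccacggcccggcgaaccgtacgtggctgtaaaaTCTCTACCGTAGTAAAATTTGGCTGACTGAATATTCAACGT
Site D, IV:15530696-15530786, minus strand: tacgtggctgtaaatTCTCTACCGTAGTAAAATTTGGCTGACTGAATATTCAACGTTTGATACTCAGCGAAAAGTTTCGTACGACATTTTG
In the next pair, site E (IV:15059086-15059564) and site F (IV:15895913-15896228), capitals mark runs of at least 3 alternating 5-base units NGAAN and NTTCN, the pattern of a heat shock element.
Site E, IV:15059290-15059380, plus strand: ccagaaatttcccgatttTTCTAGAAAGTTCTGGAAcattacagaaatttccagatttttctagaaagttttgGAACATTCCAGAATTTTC
Site F, IV:15896023-15896113, plus strand: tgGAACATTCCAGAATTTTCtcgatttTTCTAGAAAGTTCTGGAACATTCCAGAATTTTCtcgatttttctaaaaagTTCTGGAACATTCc
In 4 promoter windows, capitals mark 6-base words that were frequent at the summits, on either strand, among them ACGCAG and GGCGCA. The window between rpl-20 and Y17G9B.5 holds none of them.
rpl-20 and Y17G9B.5, IV:4750022-4750112, plus strand: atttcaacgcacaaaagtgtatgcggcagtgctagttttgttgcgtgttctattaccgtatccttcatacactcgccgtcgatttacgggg
jmjd-1.2 and F29B9.11, IV:4660484-4660574, plus strand: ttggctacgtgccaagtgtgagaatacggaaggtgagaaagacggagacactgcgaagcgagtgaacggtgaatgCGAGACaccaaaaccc
ntl-11, IV:15471556-15471646, plus strand: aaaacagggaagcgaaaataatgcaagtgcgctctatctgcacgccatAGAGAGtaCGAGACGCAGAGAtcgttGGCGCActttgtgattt
W03F8.4, IV:5183837-5183927, plus strand: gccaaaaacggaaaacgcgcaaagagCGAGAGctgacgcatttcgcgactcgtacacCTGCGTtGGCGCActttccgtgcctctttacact
For comparison, capitals mark the core of the Ruby motif, CTGTTTCA, in 2 piRNA genes, printed from the motif to the end of the annotated gene.
21ur-7377, IV:5265097-5265162, minus strand: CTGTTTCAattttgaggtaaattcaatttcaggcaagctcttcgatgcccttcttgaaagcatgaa
21ur-3187, IV:5607749-5607816, minus strand: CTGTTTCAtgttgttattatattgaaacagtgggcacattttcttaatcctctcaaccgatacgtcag

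Peaks were sparse near piRNA genes. Bases within 500 bp of a piRNA gene made up 62.2% of both regions, yet only 29 of the 176 summits lay there (16.5%, 95% interval 11.7 to 22.7). That is 7.52 summits per Mb (interval 5.04 to 10.8) against 62.7 per Mb (53.0 to 73.7) over the remaining bases of the regions, a ratio of 0.120 (0.0777 to 0.180). No summit fell inside an annotated piRNA gene, but these genes are only 21 bp long and the share of bases they cover is not given here. The median summit lay 3790 bp from the nearest piRNA gene, and the median base of the regions 239 bp. Intervals here and below cover counting error only, since peaks of 1 list are not independent replicates, and no test was made for the same reason.

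Density was higher further from piRNA genes. Within 100 bp of a piRNA gene it was 3.06 summits per Mb, from 100 to 200 bp it was 5.50 and from 200 to 500 bp it was 18.4. Between 500 and 1000 bp it was 37.9, between 1000 and 2000 bp it was 29.8, and between 2000 and 5000 bp it was 76.4. Beyond 5000 bp, 74 summits gave 86.1 per Mb (interval 67.6 to 108), which is above the value of 46.0 in the rest of the chromosome. In the list of replicate 1 density was 1.02 per Mb within 100 bp and 55.8 beyond 5000 bp, and in that of replicate 2 it was 3.57 and 50.02. Both lists had their highest value at 2000 to 5000 bp.

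**Figure D1:**
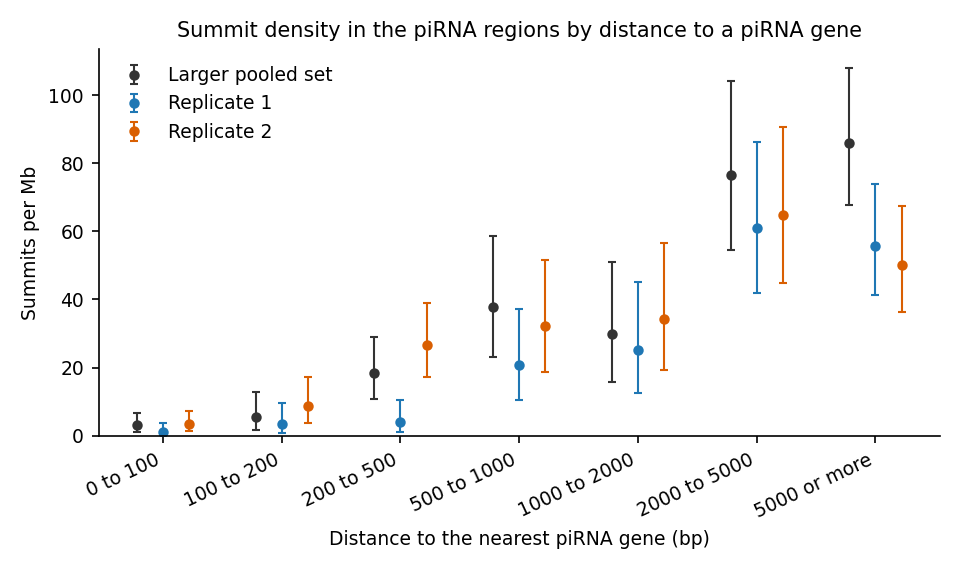
Summits per Mb of the piRNA regions (vertical axis) by distance to the nearest annotated piRNA gene in bp (horizontal axis), for the larger pooled set and the thresholded list of each replicate, with exact Poisson 95% intervals. All 3 lists lie below 10 summits per Mb within 200 bp, and the larger set reaches 86.1 beyond 5000 bp.

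Seen from the piRNA genes, 61 of the 14204 in the regions had a summit within 500 bp (0.429%, Wilson interval 0.335 to 0.551), against 0.677% of all annotated piRNA genes. The share was 1.03% (29 of 2816) in the proximal region and 0.281% (32 of 11388) in the distal region. Outside the regions, 11 of 510 piRNA genes on the rest of chromosome IV (2.16%) and 32 of 649 on other chromosomes (4.93%) had one. The piRNA genes in the clusters thus had the lower shares, and neighbouring piRNA genes can share 1 summit.

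The Ruby core was rare near the summits. Since the core is found upstream of piRNA genes, this is not independent of the distances above. The windows compared were not matched for GC content. It stood within 70 bp upstream of 4956 of the 14204 piRNA genes (34.9%), in 90.5% of these at 44 to 48 bp, and 20.9% of windows tiled over the regions held it on either strand. Within 150 bp of the summits, a window of the same length, it was present in 3 of 176 (1.70%, interval 0.581 to 4.89). In the rest of chromosome IV the shares were 0.577% of summits and 2.33% of tiled windows. A match is a description of these letters and does not show a site in use.

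Base composition differed along with distance to piRNA genes. GC content was 30.8% within 500 bp of piRNA genes, 36.5% over the remaining bases of the regions and 35.5% in the rest of chromosome IV, while the median over the 150 bp to each side of the summits was 40.9%. Bases whose surroundings held under 30% GC made up 1.99 of the 3.85 Mb near piRNA genes and had no summit there (interval 0 to 1.85 per Mb), against 4.48 per Mb (0.543 to 16.2) further away, a ratio of 0 (0 to 1.19). Among those with 30 to 35% GC, density was 1.88 summits per Mb (interval 0.227 to 6.77) near piRNA genes and 32.3 (19.4 to 50.4) further away. At 35 to 40% GC, density was 28.9 (16.2 to 47.6) against 64.6 (45.9 to 88.3). At 40 to 45% GC it was 25.2 (8.19 to 58.8) against 93.8 (67.0 to 128). At 45% or more it was 90.7 (36.5 to 187) against 168 (123 to 223), with intervals that overlap. The ratio of near to further was 0.0581 (0.00656 to 0.241), 0.447 (0.229 to 0.830), 0.269 (0.0828 to 0.681) and 0.541 (0.206 to 1.204) in the 4 classes from 30% GC upward. From 35% GC upward it was nearer to 1 than over all bases, and below 35% it was further from 1. What part GC content has in the difference was not tested.

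**Figure D2:**
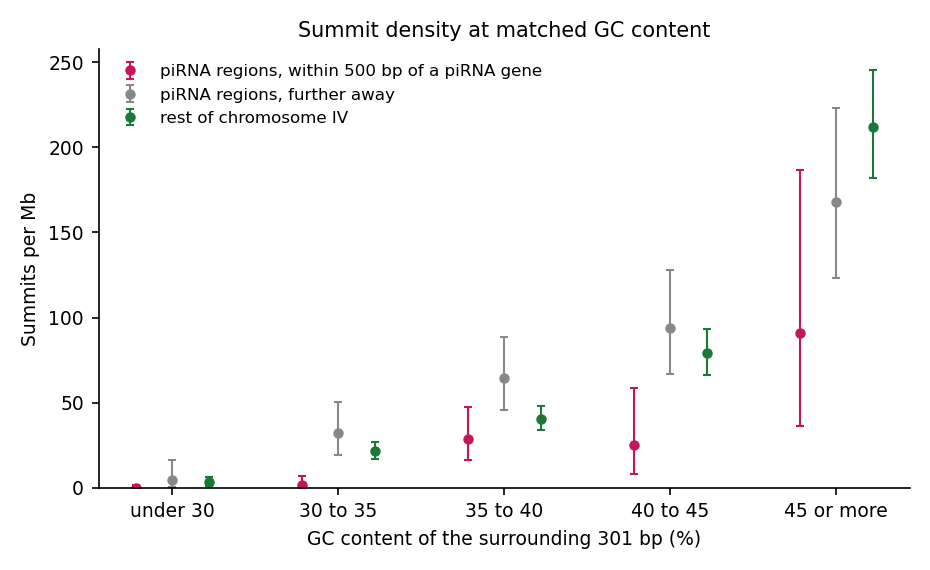
Summits per Mb (vertical axis) in bases grouped by the GC content of their surroundings in percent (horizontal axis), for bases of the piRNA regions within 500 bp of a piRNA gene, the remaining bases of the regions and the rest of chromosome IV, with exact Poisson 95% intervals. Density is highest at 45% or more in all 3, and the bases near piRNA genes have the lowest value in every class, at 25.2 against 93.8 and 78.9 in the class from 40 to 45%.

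The share of repeated sequence also differed with distance to piRNA genes. Of the 30-base words in the regions, 5.21% of those within 500 bp of a piRNA gene and 22.5% of those further away occur more than once in the genome. The bases near piRNA genes are thus the less repeated ones. Among the peaks, 9 of 29 near piRNA genes and 36 of 147 further away had over 20% of such words. What part repeated sequence has in the density was not tested.

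Promoters showed the contrast gene by gene. Of the 941 protein-coding genes that start in the regions, 102 (10.8%, interval 9.01 to 13.0) had a summit between 1000 bp upstream and 200 bp downstream of a start, against 13.7% of all protein-coding genes and 14.7% (344 of 2340) on the rest of chromosome IV. Among genes that start within 500 bp of a piRNA gene, 12 of 463 had one (2.59%, 1.49 to 4.48). Among genes that start further away, 90 of 478 had one (18.8%, 15.6 to 22.6), a difference of -16.2 percentage points (-20.1 to -12.5). Genes away from piRNA genes lay 4.13 points above the rest of the chromosome (0.550 to 8.12). The shares near and far were 1.296% and 16.7% in replicate 1 and 1.94% and 17.6% in replicate 2. Near and far refer to the outermost start of a gene, while the summit could lie at any of its annotated starts.

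Median GC content around the start was 33.9% for the genes near piRNA genes and 35.5% for those further away. Where it was 30 to 35%, 3 of 207 near genes and 27 of 175 further ones had a promoter summit, and where it was 35 to 40%, 7 of 124 and 38 of 151 did. Under 30% the counts were 1 of 85 and 3 of 49, at 40 to 45% they were 1 of 36 and 19 of 84, and at 45% or more 0 of 11 and 3 of 19. Near genes had the lower share in every class, but the intervals overlapped under 30% and at 45% or more. What part GC content has in the promoter difference was not tested. The level at which these genes are transcribed was not measured here.

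**Figure D3:**
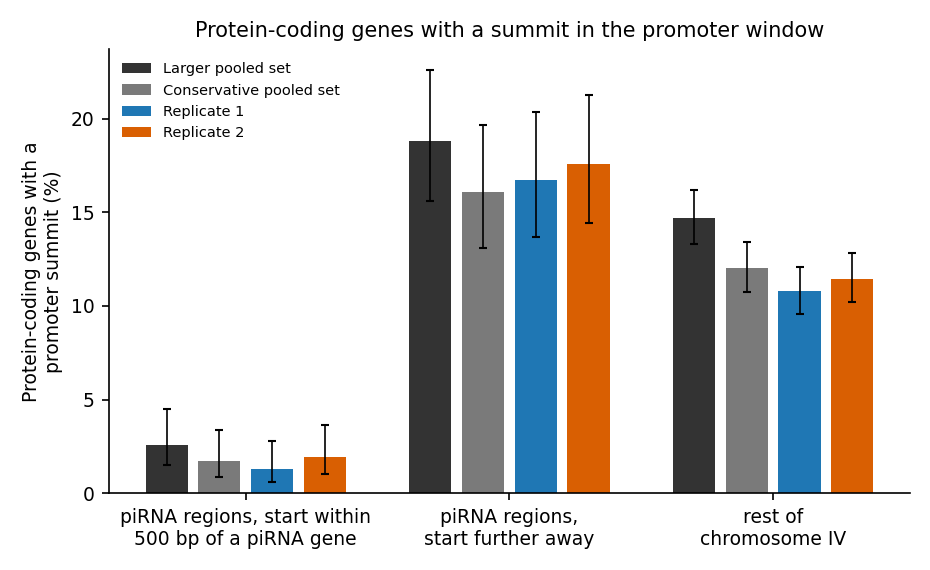
Share of protein-coding genes with a summit in the promoter window (vertical axis, percent) for genes of the piRNA regions that start within 500 bp of a piRNA gene, genes of the regions that start further away, and genes of the rest of chromosome IV, in 4 peak sets, with Wilson 95% intervals. In every set the first group lies below 3% and the second above 16%.

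The 12 genes with both a promoter summit and an outermost start near a piRNA gene were elo-6, fkh-7, lin-66, gln-3, dmd-6, vamp-8, sqrd-1, nspg-9, fbxa-83, F41H10.4, hda-6 and Y45F10B.59, named here after their values were seen. The summit can belong to another start of the gene, as at fkh-7, where the outermost start is IV:5584684 and the promoter summit IV:5607615. fkh-7, which encodes a forkhead transcription factor, spans IV:5584684-5610378 and holds 78 annotated piRNA genes. It contained 6 summits, each within 500 bp of a piRNA gene, with pooled signals of 161 to 301. Replicate 2 had a ranked peak at all 6, and replicate 1 at 3 of them. No other protein-coding gene held more than 1 of the 29 near summits. Of these 29, 13 lay in introns and 7 in promoters, and 21 lay downstream of the start of the nearest piRNA gene and 8 upstream.

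Along the regions, density fell as piRNA genes became denser. The 9 bins of 100 kb with fewer than 50 piRNA genes held 50 summits per Mb (interval 36.5 to 66.9), the 19 bins with 50 to 199 held 30.5, the 15 with 200 to 299 held 23.3 and the 19 with 300 or more held 20 (14.2 to 27.5). Of the 45 summits in the first group, 26 lay in the first 300 kb of the proximal region. Protein-coding starts also thinned out, from 186 and 197 per Mb in the first pair of groups to 141 and 99.5 in the last. In order, the groups held 45 summits beside 167 starts, 58 beside 374, 35 beside 211 and 38 beside 189. The part of protein-coding starts in the result was not tested. Over all bases the regions held 152 protein-coding genes per Mb and the rest of the chromosome 207.

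**Figure D4:**
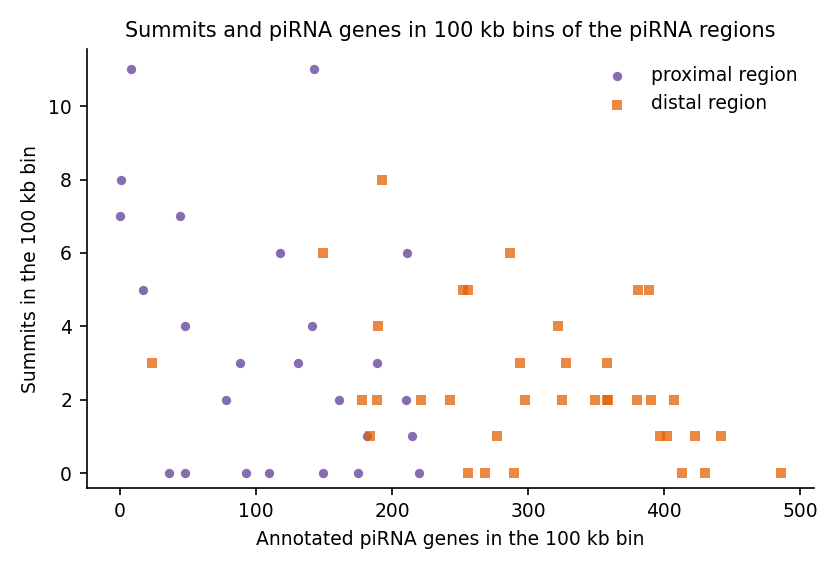
Number of summits (vertical axis) against number of annotated piRNA genes (horizontal axis) in each 100 kb bin of the proximal and the distal region. Bins with over 300 piRNA genes are all distal and hold at most 5 summits, and the 2 bins with 11 summits are proximal.

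Over whole regions the peaks were fewer than on the rest of the chromosome. The 176 peaks gave 28.4 per Mb (interval 24.3 to 32.9), against 46.0 (42.2 to 50.2) on the rest of chromosome IV, 44.8 on the other autosomes and 46.7 on X. The ratio to the rest of IV was 0.617 (0.517 to 0.733). It was 0.747 in the proximal and 0.528 in the distal region. The list of replicate 1 gave 0.528 and that of replicate 2 gave 0.761.

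Median signal over all 176 peaks, in the authors' own unit, was 255 (quartiles 165 and 395, range 7.50 to 2669), against 220 on the rest of chromosome IV and 219 over all 4441 peaks. In the separate lists, medians were 167 against 139 in replicate 1 and 163 against 139 in replicate 2. Within the regions the median was 183 for the 29 peaks within 500 bp of a piRNA gene and 258 for the 147 further away. Of the 176, 25 reached the 445 strongest of the whole set (14.2%, interval 9.81 to 20.1), against 9.81% of the peaks on the rest of IV, and these intervals overlap. The 10 strongest peaks of the whole set included 3 from the regions. At the limits, the first summit inside the proximal region had a signal of 145 and the nearest one outside 222. At its upper end the values were 9.22 inside and 496 outside. The distal region began at 18.5, with 36.8 outside, and ended at 179, with 1377 outside.

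Each summit was given 1 class, in the order promoter, 5' UTR, coding exon, 3' UTR, intron, noncoding gene and other intergenic space. Promoters held 90 of the 176 summits (51.1%), introns 29 (16.5%), coding exons 10 (5.68%), noncoding genes 10 (5.68%), a 5' and a 3' UTR 1 each, and other intergenic space 35 (19.9%). On the rest of chromosome IV promoters held 57.1%, a difference of -5.98 points (-14.4 to 2.47), and the interval spanned 0 for every class. In the list of replicate 1 alone the order turned, with 61.3% in promoters against 58.0% on the rest of the chromosome, and introns held 9.91% against 16.4%. In that of replicate 2, promoters held 49.3% against 61.8%. Coding exons held 0 of 111 summits of the regions in replicate 1 and 0 of 150 in replicate 2, against 7.05% and 1.67% on the rest of the chromosome. Promoter windows covered 21.3% of the bases of the regions and 28.3% of the rest. Within promoters alone, density was 10.5 per Mb within 500 bp of a piRNA gene and 127 further away. In other intergenic space it was 3.17 against 55.5, and in introns 13.3 against 30.4.

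The strongest site was site A, an intergenic summit 2902 bp downstream of the start of K08F11.1, with a signal of 1341 in replicate 1 and 1338 in replicate 2 and a pooled signal of 2669, the second highest of all 4441. Between it and K08F11.1, a summit at IV:4725399-4725814 had 1082 and 1044. Site B, on the other side of that gene, had 547 and 560. These 3 sites span under 8 kb in the stretch of the proximal region with few piRNA genes. Both replicates gave them nearly equal values.

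Site E had signals of 967 in replicate 1 and 1288 in replicate 2. Site C had 869 and 738. Sites D and F, the partners with which C and E share sequence, had no peak at all in the ranked list of replicate 1, which is the longer list before the threshold on reproducibility, against 437 and 902 in replicate 2. Site D lay 126 bp from 21ur-11151 and site F 337 bp from 21ur-15381.

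Sites A to F and the one at IV:4725399-4725814 are the 7 of the 12 strongest sites that lay outside promoters. In each, 43.4 to 91.3% of the 30-base words of the interval occur more than once in the genome. Over all peaks of the regions, 45 of 176 (25.6%) passed 20% of such words, against 97 of 520 (18.7%) on the rest of chromosome IV. Reads from such sequence may map to several copies, and no source used here says how such reads were treated. The part of this in the signal was not tested. Sites E and F also share a run of 87 bases built of heat shock element units. Across the regions 13 of 176 summits (7.39%, 4.37 to 12.2) had such a run of units within 150 bp, against 4.42% of summits on the rest of the chromosome and 2.33% of windows tiled over the regions.

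The strongest promoter summit lay between rpl-20, a gene for a large-subunit ribosomal protein, and Y17G9B.5, with 821 in replicate 1 and 974 in replicate 2. The one upstream of fbxa-83, an F-box gene, had 630 and 518. It lay 235 bp from 21ur-7591 and 37 bp from the snoRNA gene Y67A10A.14. Of the 10 promoter genes with the highest signal it was the only one whose summit was within 500 bp of a piRNA gene.

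usp-4, which encodes a ubiquitin-specific protease, had 537 and 435. The shared promoter of F29B9.11 and jmjd-1.2, a histone demethylase gene, had 442 and 362. ntl-11, for a subunit of the CCR4-NOT deadenylase complex, had 380 and 369. At all 3 the lower value came from replicate 2, and the nearest piRNA gene was 2483 bp or more away.

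W03F8.4 had 381 and 349, sqd-1, whose product is an RNA-binding protein related to Drosophila Squid, 437 and 314, and ccar-1, related to human cell cycle and apoptosis regulators, 302 and 354. Mean signal over the 2 replicates was 365 ± 22.9 (SD), 375 ± 87.1 and 328 ± 36.7. Over all peaks of the regions, within 50 bp of the summit, ACGCAG stood at 25 of the 176 summits (14.2%) and the word CGAGAC at 25, against 6 each in flanking windows centred 250 bp away and 1.82% and 2.37% of windows tiled over the regions. GGCGCA stood at 21, against 2 in the flanks. On the rest of chromosome IV, 11.2% and 12.5% of summits had the first and the second of these words. The words were picked after they were seen, so no test was made.

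Closest to piRNA genes, 11 summits lay within 200 bp of one. After site D, the strongest were at IV:5967094-5967289, over a tRNA gene and 86 bp from 21ur-5229, with 245 in replicate 1 and 209 in replicate 2, and at IV:5264811-5265071, over a pseudogene and 126 bp from 21ur-7377, with 208 and 260. The promoter summit shared by F41H10.4 and hda-6, a histone deacetylase gene, had 199 and 203, and lay 108 bp from 21ur-11261. The one in fkh-7 had 199 and 111, and the one at nspg-9 had 136 and 153. All of these had a peak in both replicates. Of the next 2 by signal, IV:13600606-13601041 and IV:13601444-13601879, the first lay 23 bp from the snRNA gene smy-8 and the second inside smy-10, at 25 and 3 bp from piRNA genes. They had 127 and 100 in replicate 2 and no ranked peak in replicate 1. The remaining 3 of the 11 had pooled signals of 158 to 173.

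Whatever their class, 21 of the 176 summits lay inside an annotated noncoding gene other than a piRNA gene, and 8 of these were in tRNA genes. Of the 8, 4 were classed as noncoding and the others fell first in a promoter window or an intron. Their pooled signals were 253 to 494, and 7 of the 8 overlapped a thresholded peak in both replicates. The eighth, at IV:16399963-16400398, had 153 in replicate 1 and 101 in replicate 2 and overlapped a thresholded peak in replicate 1 only. No share over all bases or all peaks is given for the counts of 21 and 8, so they have no background. In the single classes above, noncoding genes, piRNA genes included, held 5.68% of summits and 6.05% of bases in the regions. On the rest of chromosome IV they held 2.69% and 2.71%.

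Both replicates held 93 of the 176 peaks in their thresholded lists (52.8%, interval 45.5 to 60.1), against 45% of all 4441 and 46.2% of those on the rest of chromosome IV. Neither list held 42 of the 176, against 1035 of all 4441 and 108 of the 520 on the rest of chromosome IV. Replicate 2 had a ranked peak at all 176 and replicate 1 at 159. Over these 159, log2 signal of the replicates had a Pearson r of 0.69 and a Spearman rho of 0.755, given as a description across peaks of 2 samples, and 88.7% lay within 2-fold. Overlapping peaks of the pooled set can carry the same replicate peak, so some replicate values enter these figures more than once.

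The replicates parted near piRNA genes. Of the thresholded peaks of replicate 2 in the regions, 41 of 150 lay within 500 bp of a piRNA gene (27.3%), and of those of replicate 1, 9 of 111 (8.11%). Of those 41, 27 had no peak in the ranked list of replicate 1 (65.9%, interval 50.5 to 78.4). Further from piRNA genes this was so for 21 of 109 (19.3%), on the rest of chromosome IV for 10.9% and on other chromosomes for 12.7%. In the other direction, 0 of 9 and 1 of 102 peaks of replicate 1 lacked a ranked peak in replicate 2. The ranked lists held 17 summits in replicate 1 and 162 in replicate 2 within 100 bp of a piRNA gene, and 799 and 805 beyond 5000 bp.

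Pooled signal was also set beside the signal in replicate 2. Among the 17 members without a ranked peak in replicate 1, of which 10 lay within 500 bp of a piRNA gene, the median ratio of pooled signal to the signal in replicate 2 was 2.07 (quartiles 1.80 and 2.21). Among the other 159 it was 2.00 (1.83 and 2.26). The pooled values are the authors' own and no scale shared with the replicate lists is stated. Why the list of replicate 1 lacks these peaks was not tested. The low density near piRNA genes held in replicate 2 as well, where the ratio of near to further was 0.229 (0.156 to 0.331), against 0.0537 (0.0239 to 0.106) in replicate 1.

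**Figure D5:**
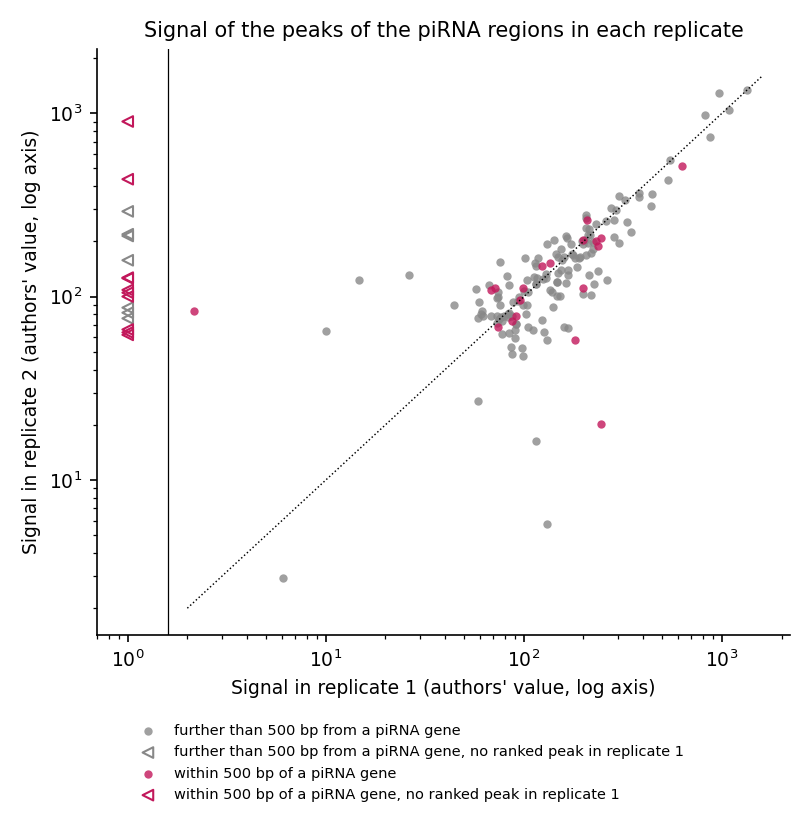
Signal of each of the 176 peaks in replicate 2 (vertical axis, log scale) against replicate 1 (horizontal axis, log scale), in the authors' unit, coloured by distance to the nearest piRNA gene, with equality as a dotted line. The 17 triangles in the strip left of the line had no ranked peak in replicate 1, and include sites F and D at 902 and 437 in replicate 2.

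Among the peaks that overlapped a thresholded peak in both replicates, the 5 with the lowest pooled signal had values of 7.50 to 27.1. The lowest lay 14 bp downstream of the start of puf-7, which encodes a Pumilio-family RNA-binding protein. It also lay in the promoter window of the divergent neighbour snpc-3.1, related to a subunit of the complex that activates snRNA genes. Its values were 6.08 in replicate 1 and 2.94 in replicate 2. The promoter itself was not weakly bound, since an overlapping peak there, at IV:5486485-5486648, had 155 and 182 and a pooled signal of 333. The next lowest was in the promoter window of T22D1.3, where the interval took 147 and 120. At the other 3, including the one at IV:5967180-5967615 with a pooled signal of 17.5, the highest replicate value was 117 to 245. Replicate values are those of the overlapping peak with the nearest summit, so a weak summit beside a strong one can carry its neighbour's value, as here at IV:5967180-5967615, whose 245 in replicate 1 is that of the tRNA site above.

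Of 25 genes on a list drawn up for the piRNA pathway, 24 matched the annotation, and 5 of these (20.8%) had a promoter summit, against the 13.7% over all genes. None of the 5 lies in the regions. None of the 10 that act in transcription of piRNA genes, among them prde-1, snpc-4, tofu-4 and tofu-5, had a promoter summit. A list of 10 genes is too short to tell a share of 0 from the 13.7% over all genes. tofu-1 and tofu-2, for subunits of the nuclease that trims piRNA precursors at their 5′ ends, had signals of 144 and 76.0 in replicate 1 and 96.5 and 51.4 in replicate 2. tofu-6 and tost-1, for subunits of the PETISCO complex, had 136 and 69.3 in replicate 1 and 130 and 82.3 in replicate 2. hrde-1, for a nuclear Argonaute that acts downstream, had 165 and 175.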

How the data were processed

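The data are the authors' peak lists for 2 samples of 1 group: a thresholded and a ranked list per sample and, from both samples together, a larger and a conservative thresholded set. Thresholding used the irreproducible discovery rate (IDR), a measure of how poorly a peak recurs, per the file headers. The aligner, the peak caller and the rule for reads with several matches: not given in the sources used here. Each peak carries the signal value deposited by the authors, used here to describe and rank peaks. The score and −log10 values they deposited decide no result. With no reads counted in these lists, sequencing depth stays unknown.

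Summits were placed on the Ensembl release 115 annotation of WBcel235 (15363 piRNA genes, 19973 protein-coding genes). At each site, a replicate's signal comes from the peak in that sample's ranked list that overlaps the site by at least 1 bp, the one with the nearest summit where several do. Sequence came from the RefSeq genome of the same build, and a 30-base word was called repeated when it occurs more than once in either orientation. Shares have Wilson, densities exact Poisson, density ratios exact conditional and differences of shares Newcombe 95% intervals. Named sites are the 12 strongest, the 8 strongest within 200 bp of a piRNA gene, the 10 promoter genes with the highest summit, the 5 weakest present in both replicates, and a list of piRNA pathway genes. The regions, lists and named-site rule were chosen with earlier results of these data known. The GC classes, repeated words, heat shock elements and 6-base words were added after the data were seen. Alternatives covered the peak set, each replicate alone, region limits, windows, signal minimum and motif length. Computations used Python 3.11.15, numpy 2.4.6, pandas 2.3.3, scipy 1.17.1 and matplotlib 3.10.9.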

Additional observations from a re-analysis of the deposited data

How the results depend on the processing

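The density ratio was 0.528 to 0.761 with each replicate alone, 0.392 and 0.517 in the ranked lists of replicates 1 and 2, and within the first range under the other alternatives run, and the share of summits within 500 bp of a piRNA gene was 8.11 to 27.3% with each replicate alone. The median signal was 318 in the conservative set, 163 to 167 in the replicate lists and 247 without peaks rich in repeated words, an alternative added after seeing the data. The promoter share was 37.5% with a window of 500 bp upstream and 100 bp downstream, 67.6% with 2000 bp upstream, 59.8% among peaks at or above the median signal and 49.3 to 61.3% with each replicate alone. Against the rest of the chromosome the promoter share was lower in the larger set and in replicate 2 and higher in replicate 1. The share of piRNA genes with a summit was 0.106% within 200 bp and 1.17% within 1000 bp, and 0.162 to 0.591% with each replicate alone. The share of protein-coding genes with a promoter summit was 9.03% in the conservative set, 8.50% with the narrower window and 9.14 to 9.88% with each replicate alone. The Ruby core stood at 6.82% of summits when shortened by 1 base and at 0.901 to 4% with each replicate alone. Peaks in both replicates made up 45.5% when at least 50% of the peak had to be covered and 90.3% in the ranked lists. No paired analysis was possible because there is only 1 group.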

Other observations

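Words of the runs shared by the strongest intergenic sites were also looked up across the genome. The run of sites A and B has 30-base words at 8 loci, and 5 of these had a summit within 500 bp. The run of sites C and D has them at 9 loci, 7 with a summit. The run of heat shock element units of sites E and F has them at 78 loci, 35 with a summit (44.9%). Sites A to F were chosen by their summits, so their own loci have a summit by selection. No share for other repeated loci is given, so the counts have no background to be read against. The part of reads shared between copies was not tested.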
